A study of Mus musculus with 25 samples.

Results

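The libraries described here map where 2 forms of the splicing factor SRSF7 touch RNA in the same kind of cell. The first, titled RRM_OE, is a shortened product that keeps the RNA recognition motif (RRM), the domain that contacts RNA. The second, titled endo_OE, is the endogenous, untagged protein. The members were chosen by their titles, and 4 of the 25 libraries of the series belong here: RRM_OE replicates 3 and 4, and endo_OE replicates 4 and 5.

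As background, SRSF7 is a member of the SR protein family of splicing regulators. It binds RNA through its RRM and a CCHC zinc knuckle, and its arginine/serine-rich tail recruits other proteins. SR proteins regulate their own production, and cells that overexpress SRSF7 make transcript forms with split reading frames from which a short protein carrying the RRM, without the arginine/serine-rich tail, can be made. Whether such a product crosslinks to RNA at the same places as the full protein is the question that this pair of groups addresses.

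All libraries come from P19 cells, a mouse embryonal carcinoma line. RRM_OE and endo_OE both carry the genotype label SRSF7-GFP OE, so the cells of both groups overexpress GFP-tagged SRSF7. Both were irradiated with UV at 254 nm and precipitated with an anti-SRSF7 rabbit antibody. 3 further kinds of library are set beside them: the tagged protein from overexpressing cells (GFP_OE, 2 anti-SRSF7 libraries), the endogenous protein from cells labelled WT (endo_WT, 1 anti-SRSF7 library), and 2 background libraries from overexpressing cells, titled GFP_OE_noUV and GFP_OE_noAb. The products are separated by the membrane region that was cut after gel electrophoresis, so that a product is defined by size. The file headers mark both RRM_OE libraries as trunc and give the library titled GFP_OE_noUV the condition noUV-trunc, so that library may be a control of the short product. The labels do not give the promoter, the number of clones, or whether the products came from the same immunoprecipitates. Replicates are separate libraries, and the design text states biological replicates for the GFP-tagged proteins alone, so the p-values below measure the spread between these libraries, which may be technical. Crosslink files cannot show the length of the precipitated protein, so the label RRM_OE was not checked against it. The overexpression label can be set beside 1 region, on the minus strand of chromosome 17 from 80585001 to 80690000 (mm9, as all coordinates here). It held 22767 and 17600 events per 1000000 events of the library (CPM) in RRM_OE, 18892 and 19824 CPM in endo_OE and 25391 and 14187 CPM in GFP_OE, against 1278 CPM in endo_WT.

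In iCLIP, the peptide left on the RNA halts the reverse transcriptase, and the end of each cDNA therefore marks a crosslink event. Depth was low and uneven. RRM_OE held 17763 and 42982 events, and endo_OE held 33516 and 83639. The libraries without UV and without antibody held 1789 and 3080 events, and the other anti-SRSF7 libraries between 126841 and 471705. RRM_OE replicate 3 was sequenced in another run, with GFP_OE replicate 3 and both background libraries, whereas RRM_OE replicate 4 shared a run with both endo_OE libraries, GFP_OE replicate 4 and endo_WT. Shares below were computed after each library was thinned to 17745 events. CPM values use all placed events of a library.

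By a mean over windows, the 2 RRM_OE libraries stood further apart than the 2 endo_OE libraries. Over windows of 5000 nucleotides (nt) with at least 10 thinned events in a pair, the mean squared difference between RRM_OE replicates 3 and 4 was 4.76 times that of counting error alone, against 1.74 times between endo_OE replicates 4 and 5. RRM_OE replicate 4 lay 3.98 and 2.67 times counting error from endo_OE replicates 4 and 5. RRM_OE replicate 3 lay 7.79 and 7.24 times from them. By this mean, RRM_OE replicate 4 was nearer to both endo_OE libraries, with which it shared a run, than to its own replicate. The median over the same windows gave another order. It was 0.727 between the RRM_OE libraries and 0.692 between the endo_OE libraries. Between RRM_OE replicate 4 and endo_OE replicates 4 and 5 it was 1.67 and 1.33. The order thus depends on the measure, and each result is also given for RRM_OE replicate 4 alone where that matters. By the mean, each RRM_OE library was nearest to the GFP_OE library of its own run, replicate 3 at 4.09 times and replicate 4 at 2.10 times. With a second thinning seed this held for RRM_OE replicate 3, at 3.46 times, and not for RRM_OE replicate 4. The latter then lay 3.19 times from GFP_OE replicate 4 and 2.82 times from endo_OE replicate 5. By the median, RRM_OE replicate 3 was nearest to RRM_OE replicate 4, at 0.727 against 1.64 for GFP_OE replicate 3.

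The difference in crosslink position with the most events behind it lay inside the strongest window, on the plus strand of chromosome 17 from 39980001 to 39985000. The genome annotation of this build was not used here, so windows are given by position and not by gene. The total in this window overlapped between the groups, at 17639 and 25492 CPM in RRM_OE against 23854 and 29256 CPM in endo_OE. The fitted log2 fold change of RRM_OE over endo_OE was −0.48 ± 0.89 (standard error), with an adjusted p of 0.949 by the negative binomial quasi-likelihood F test with Benjamini-Hochberg adjustment. The library without antibody held 65494 CPM and the library without UV 12921 CPM in the same window. This window is therefore also a strong background site, and what part background has in its level was not tested.

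Within the window the events lay at different places. In the 100 nt from 39983801 to 39983900, RRM_OE placed 48.6% and 25.7% of its window events, against 6.52% and 6.96% in endo_OE. GFP_OE placed 6.25% and 2.26% there, endo_WT 3.74%, and the library without antibody 3.98%. The share in both RRM_OE libraries was higher than in each of these. The library without UV placed 13.0% there, from 23 events in the whole window.

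Most of this excess fell on a few nucleotides. Within 2 nt of position 39983829 there were 106 and 183 events in RRM_OE, against 22 and 49 events in endo_OE. This was 33.9% and 16.7% of the window in RRM_OE, against 2.76% and 2.00% in endo_OE. As levels, the same 5 nt held 5974 and 4260 CPM in RRM_OE, against 658 and 587 CPM in endo_OE, and the groups did not overlap. GFP_OE held 189 and 97.6 CPM there and endo_WT 99.4 CPM.

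Background at this site was poorly measured. The library without UV held 0 of its 23 window events there. The library without antibody held 2 of its 201, which is 652 CPM, at the level of endo_OE and below both RRM_OE libraries. Both RRM_OE libraries carry the barcode GGCA, which no endo_OE library carries. The 2 anti-GFP libraries of the zinc-knuckle mutant with this barcode held 37.2 and 38.9 CPM at the site, below both endo_OE libraries. The anti-GFP libraries of the unmutated protein held between 13.5 and 173 CPM. The site was picked because it stood out, so these values are a description.

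Other stretches of the same window held less in RRM_OE. The 100 nt from 39984401 to 39984500 held 7.99% and 5.02% of window events in RRM_OE, against 26.2% and 23.4% in endo_OE. The 100 nt from 39984601 to 39984700 held 1.60% and 4.84% in RRM_OE, against 14.4% and 15.2% in endo_OE. Within 2 nt of position 39984604 RRM_OE had 1 and 8 events, against 45 and 103 in endo_OE. The stretches from 39984701 to 39984800 did not separate the groups in the same way, with 7.67% and 9.41% in RRM_OE and 8.77% and 9.17% in endo_OE.

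**Figure D1:**
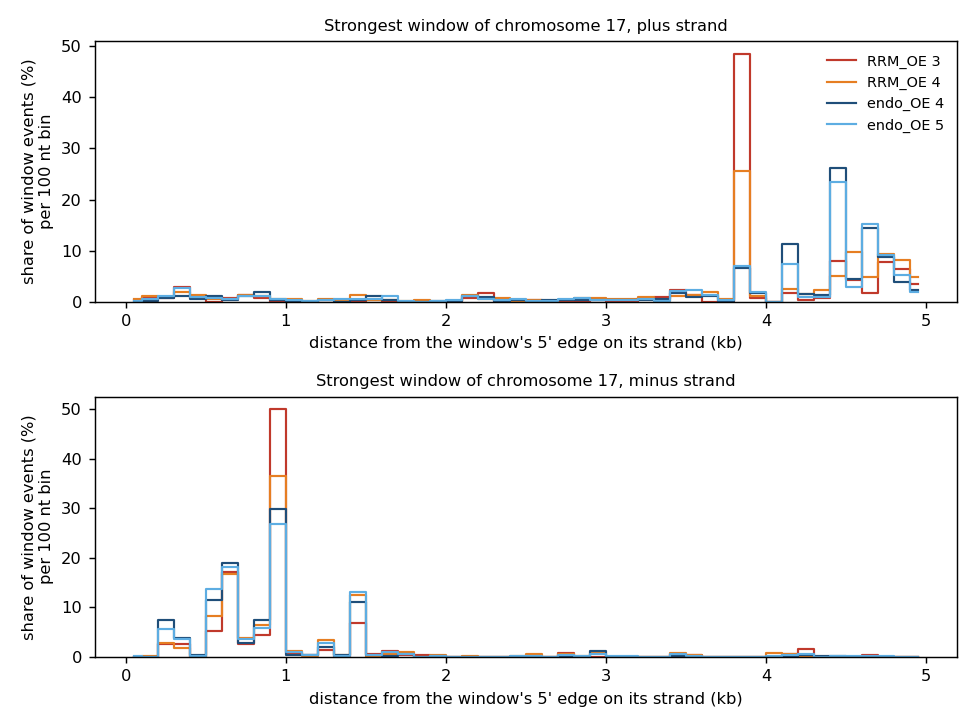
Share of a window's events per 100 nt bin (y axis, percent) along the windows on chromosome 17 plus (39980001 to 39985000) and chromosome 17 minus (80600001 to 80605000), by distance from the window's 5′ edge in kb (x axis), with a line for each RRM_OE and endo_OE library. On chromosome 17 plus both RRM_OE lines have a peak of 48.6% and 25.7% where endo_OE has 6.52% and 6.96%.

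How much of the profile was shared was measured over 100 nt bins after the libraries were brought to the same number of events in a window. On chromosome 17 plus, RRM_OE and endo_OE profiles shared 47.3% to 56.9%, below the 66.8% between the RRM_OE libraries and the 82.4% between the endo_OE libraries. On chromosome 17 minus, from 80600001 to 80605000, they shared 75.1% to 88.1%, against 80.9% between RRM_OE libraries and 92.8% between endo_OE libraries. On chromosome 19 minus, from 5795001 to 5800000, they shared 62.7% to 69.3%, while the RRM_OE pair shared 54.7% and the endo_OE pair 62.7%. Of these 3 windows, only that on chromosome 17 plus had all pairs across the groups below both pairs within a group. The 3 profiles rest on 313, 362 and 75 events a library.

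The window on chromosome 17 minus, the strongest of RRM_OE replicate 3, also had 1 bin with a higher share in RRM_OE. From 80604001 to 80604100 lay 50% and 36.5% of its events in RRM_OE, against 29.9% and 26.8% in endo_OE. GFP_OE had 40.4% and 20.1% there, a range that spans RRM_OE replicate 4 and both endo_OE libraries.

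The same contrast was fitted over all 10 nt and 100 nt windows, an analysis added after the profiles had been seen. Without the sequencing run in the model, the test called 0 of 276 windows of 10 nt, with 5 higher and 25 lower in RRM_OE at an unadjusted p under 0.05. With the run as a block, 30 of 276 windows were called (10.9%), 4 higher and 26 lower in RRM_OE. All 4 that were higher lie on chromosome 17 plus. The window from 39983821 to 39983830 held 6255 and 4260 CPM in RRM_OE, against 777 and 599 CPM in endo_OE, a log2 fold change of 2.54 ± 0.60 with an adjusted p of 0.006 with the run as a block, and an adjusted p of 0.158 without it. Its neighbour, from 39983831 to 39983840, held 1747 and 1746 CPM in RRM_OE, against 209 and 263 CPM in endo_OE.

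The other windows of 10 nt called as higher lay downstream. That from 39984921 to 39984930 held 564 and 792 CPM in RRM_OE, against 179 and 192 CPM in endo_OE. That from 39985101 to 39985110, in the next 5000 nt window, held 564 and 1467 CPM in RRM_OE, against 149 and 168 CPM in endo_OE. In neither did the groups overlap. Of the 26 windows called as lower in RRM_OE, 8 lie in the strongest 5000 nt window. Among them, that from 39984451 to 39984460 held 451 and 326 CPM in RRM_OE, against 2421 and 2394 CPM in endo_OE.

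Bins of 10 nt with at least 15 events over the 4 libraries numbered 316. Both RRM_OE libraries were above both endo_OE libraries in 27 of them (8.54%) and below both in 146 (46.2%). In the strongest window, 6 of 54 bins were higher in RRM_OE and 23 were lower. Among these bins RRM_OE had fewer above endo_OE than below it, there as elsewhere, and some of those above it held many events. A bin was admitted by its summed events, and endo_OE had more placed events than RRM_OE, 116990 against 60699. The filter thus takes in more bins that are high in endo_OE, and its part in these counts was not tested.

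The windows with the most events were largely the same for both products. Of the 12 windows of 5000 nt with the highest mean CPM in each group, 10 were shared, giving 14 in all. RRM_OE was lower in both libraries in 7 of the 14, higher in 0, and overlapped with endo_OE in 7. Over all 441 windows that entered the fit, RRM_OE was lower in both libraries in 157 (35.6%) and higher in both in 51 (11.6%).

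The window on chromosome 17 minus from 80600001 to 80605000 held 20400 and 14993 CPM in RRM_OE, against 16112 and 17130 CPM in endo_OE. The groups overlapped there, and the library without UV held 25281 CPM. On chromosome 19 minus, from 5795001 to 5800000, RRM_OE held 4227 and 6984 CPM, against 8011 and 8954 CPM in endo_OE. RRM_OE was the lower group there, with a log2 fold change of −0.76 ± 0.73 and an adjusted p of 0.835, while the library without UV held 8989 CPM. The adjacent window, from 5800001 to 5805000, overlapped, with 1522 and 1630 CPM in RRM_OE and 1196 and 1808 CPM in endo_OE.

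RRM_OE replicate 3 stood well below the other libraries in 2 of these windows. On chromosome 11 plus, from 68885001 to 68890000, RRM_OE held 789 and 4144 CPM, against 8310 and 8044 CPM in endo_OE. On chromosome 9 minus, from 78020001 to 78025000, it held 451 and 2468 CPM, against 3707 and 5614 CPM in endo_OE. The adjusted p was 0.587 in both, and on chromosome 9 minus the RRM_OE libraries lay further from each other than RRM_OE replicate 4 lay from the nearer endo_OE library. The background libraries held 4494 CPM without UV and 1629 CPM without antibody on chromosome 9 minus, from 8 and 5 events. On chromosome 11 plus they held 1124 and 1955 CPM, from 2 and 6 events. In the first 5000 nt of the plus strand of the mitochondrial genome, RRM_OE held 1522 and 3748 CPM, against 6576 and 4681 CPM in endo_OE, and the background libraries held 5056 CPM without UV and 11404 CPM without antibody.

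In 2 of the strongest windows, both RRM_OE libraries stood close together and well below endo_OE. On chromosome 4 minus, from 42090001 to 42095000, RRM_OE held 733 and 792 CPM, against 2571 and 1832 CPM in endo_OE. Both background libraries held 0 events there, where 3 events would be 1685 CPM without UV and 978 CPM without antibody. GFP_OE held 2495 and 403 CPM in this window, and endo_WT held 1259 CPM. On chromosome 6 minus, from 97595001 to 97600000, RRM_OE held 564 and 582 CPM, against 2481 and 1544 CPM in endo_OE. The background libraries held 562 CPM without UV and 652 CPM without antibody there. These values come from 1 and 2 events, too few to set beside RRM_OE. GFP_OE held 1453 and 486 CPM in this window. The log2 fold changes were −1.70 ± 0.78 and −1.98 ± 0.76, both with an adjusted p of 0.587. With the run as a block both windows passed, at an adjusted p of 0.003. The GFP_OE libraries of the 2 runs differed by more there than RRM_OE did from endo_OE on chromosome 4 minus.

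**Figure D2:**
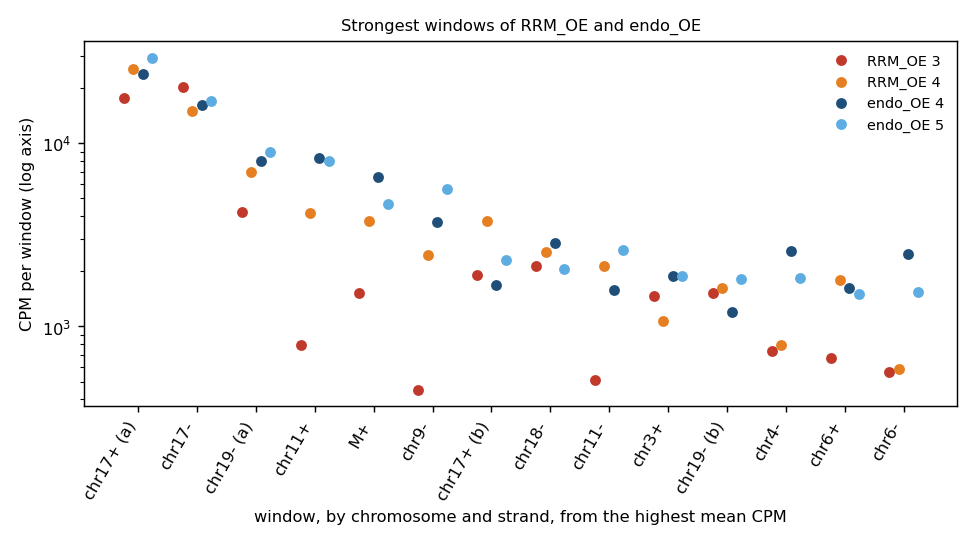
CPM per 5000 nt window (y axis, log scale) in each RRM_OE and endo_OE library for the 14 windows among the 12 strongest of either group (x axis, by chromosome and strand). Points of both RRM_OE libraries lie below both endo_OE libraries in 7 windows and above both in 0.

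Across all windows, the test without the sequencing run called no difference between the products. The negative binomial quasi-likelihood F test, on the 7 anti-SRSF7 libraries made with UV, called 0 of 441 windows at an adjusted p under 0.05 (0%), and the lowest adjusted p was 0.587. At an unadjusted p under 0.05 there were 35 windows (7.94%), 1 higher and 34 lower in RRM_OE. The power of this F test was low. Its recovery in simulated data, at a dispersion of 0.2, stood at 0% for a 2-fold difference. Recovery rose to 17.9% when the difference was 4-fold, and to 45.5% when it was 8-fold. That dispersion was set in advance and not estimated from these libraries, and no difference between runs was simulated. Recovery in the real data may thus be lower. The lack of calls therefore does not show that the products bind alike. A second tool, limma-voom, called 0 windows, with 3 higher and 27 lower at an unadjusted p under 0.05. The median log2 fold change over the 441 windows was −0.51, and 71.7% lay below 0. That shift depends on the scaling. With library totals alone the median was −0.33, and 63.0% lay below 0. With factors taken over all windows, which follow depth, it was −0.87, and 85.3% lay below 0.

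With the run as a block, 29 of the 441 windows (6.58%) were called, and all 29 had a fitted log2 fold change below 0. The mean CPM was higher in RRM_OE in 1 of them, on chromosome 13 plus from 42510001 to 42515000, with 564 and 140 CPM in RRM_OE and 418 and 192 CPM in endo_OE, and its log2 fold change was −0.13 without the run in the model. Apart from a window with 0 events in RRM_OE, described below, the log2 fold changes lay between −5.84 and −2.05. Over all 29, that window included, the median was −2.76, and the adjusted p of the F test lay between 2.27e-06 and 0.0226. In 25 of the 29 both RRM_OE libraries lay below both endo_OE libraries in CPM, and in all 29 RRM_OE replicate 4 did. Summed over the 29 windows, RRM_OE held 5410 and 4284 CPM, against 20985 and 12916 CPM in endo_OE. The windows were called as lower in these same libraries, so a lower sum in RRM_OE follows from the selection. Some of them, as on chromosome 8 minus from 126120001 to 126125000, reached the filter's CPM in endo_OE alone. GFP_OE held 14938 and 3214 CPM and endo_WT 8096 CPM in them. The GFP_OE libraries of the 2 runs thus differed widely in these windows, and since GFP_OE is the only other group in both runs, the size of the run term rests on it and on RRM_OE. Within the shared run alone, RRM_OE replicate 4 against both endo_OE libraries gave 7 of 108 windows (6.48%), all lower, and 6 of these were among the 29. In that fit the lone RRM_OE library is assumed to vary like the other groups.

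**Figure D3:**
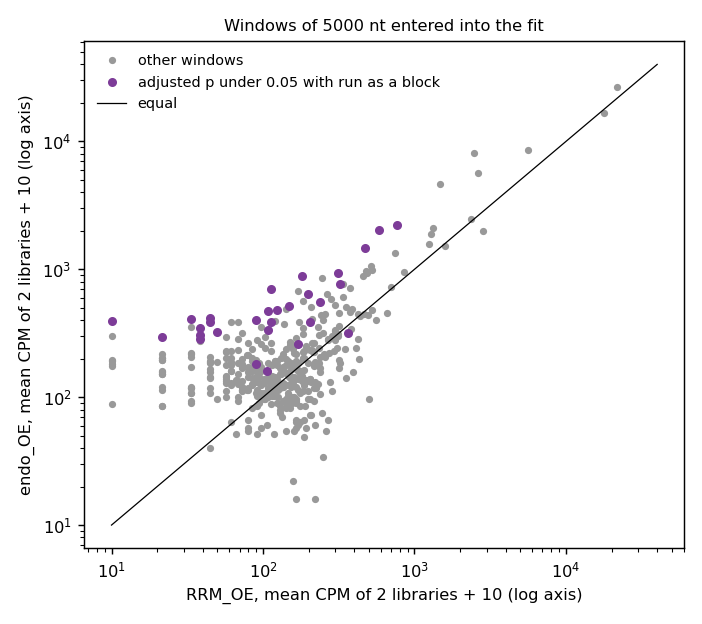
Mean CPM of the RRM_OE libraries (x axis) and of the endo_OE libraries (y axis), each plus 10 on a log scale, for the 441 windows of the fit, with the line of equality and the 29 windows called with the run as a block in purple. All but 1 of the 29 lie on the endo_OE side of the line.

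By the rule for naming windows when too few are called, the 4 with the smallest p in each direction are described here. All 4 of the lower ones were among the 29. On chromosome 1 minus, from 167735001 to 167740000, RRM_OE had 0 and 0 events, against 15 and 27 in endo_OE. Taken over the group with 3 events as the limit of a count of 0, this is at least 7.26-fold lower in RRM_OE, and the exact 95% interval of the ratio of pooled CPM, which also counts the error of endo_OE, reaches up to 0.177. Only the endo_OE libraries reached the 119.7 CPM that the filter asks for. The window thus entered the test through the group where it is high, and its values are a description. On chromosome 10 plus, from 24610001 to 24615000, RRM_OE had 2 and 4 events, against 30 and 41 in endo_OE, which is 113 and 93.1 CPM against 897 and 491 CPM. The log2 fold change was −2.92 ± 0.88, with an adjusted p of 0.587.

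The other lower windows rest on fewer events. On chromosome 18 plus, from 75160001 to 75165000, RRM_OE had 0 and 1 events, against 7 and 30 in endo_OE, a ratio of pooled CPM of 0.0521 (95% interval 0.00128 to 0.309, exact, for counting error only). On chromosome 12 minus, from 13495001 to 13500000, RRM_OE had 0 and 2 events, against 19 and 19 in endo_OE, a ratio of 0.101 (0.0119 to 0.393). Besides endo_OE, only GFP_OE replicate 3 reached the filter's CPM in that window. In all 4 lower windows the background libraries had 0 events. With so few events in the background libraries, 3 events would be 1685 CPM without UV and 978 CPM without antibody, so a level like that of endo_OE could not have been seen there.

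The 4 windows with the smallest p among those higher in RRM_OE held few events, and 0 of them passed with the run as a block. On chromosome 4 minus, from 142770001 to 142775000, RRM_OE had 12 and 13 events, against 1 and 12 in endo_OE, which is 676 and 303 CPM against 29.9 and 144 CPM. The log2 fold change was 1.93 ± 0.79, with an adjusted p of 0.587. RRM_OE had 6 and 7 events, against 1 and 5, on chromosome 16 plus from 20680001 to 20685000. It had 3 and 6 events, against 0 and 1 in endo_OE, on chromosome 17 minus from 80260001 to 80265000. It had 4 and 3 events, against 0 and 2 in endo_OE, on chromosome 18 plus from 61740001 to 61745000. On chromosome 16 plus and chromosome 17 minus only the RRM_OE libraries reached the filter's CPM. These windows thus entered the test through the group where they are high. On chromosome 18 plus RRM_OE replicate 3 and GFP_OE replicate 3 alone reached it.

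A lower share of RRM_OE events than of endo_OE events lay on nucleotides where the anti-GFP libraries of WT SRSF7 also had events. Over the 4598749 positions of those 3 libraries, the share was 16.5% and 19.0% in RRM_OE, against 23.9% and 23.5% in endo_OE. The means were 17.7% ± 1.73 in RRM_OE and 23.7% ± 0.275 in endo_OE (SD, n = 2 each), a difference of −5.93 percentage points. The groups did not overlap, but an exact permutation test of 2 against 2 cannot give a two-sided p below 0.333, which is the value here.

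Set beside the background, RRM_OE was at the level of the libraries that should hold little bound RNA. The library without UV had 15.7% of its events at these positions (95% interval 14.01% to 17.45%, exact) and the library without antibody 18.9% (17.6% to 20.4%), both for counting error only. GFP_OE had 19.0% and 19.2%, and endo_WT 18.9%. The endo_OE libraries thus stood above all the others, and RRM_OE replicate 4 was at the level of GFP_OE.

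A dense region gives many chance matches, so the share at the same nucleotide was also set against the share per nucleotide 10 to 20 nt away. That ratio was 1.55 and 1.54 in RRM_OE, against 1.65 and 1.60 in endo_OE, 1.27 without UV and 1.404 without antibody. It was 1.69 and 1.60 in GFP_OE and 1.69 in endo_WT. Both RRM_OE libraries were thus the lowest of the 7 anti-SRSF7 libraries made with UV, and above both background libraries.

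The same order appeared with each target library. For 10 of 10 target libraries made with UV and antibody, both RRM_OE libraries had a lower share than both endo_OE libraries, at 0.613 to 0.774 of the endo_OE mean. Background targets showed the same order, at 0.610 of the endo_OE mean for the library without antibody and 0.640 to 0.694 for those without UV. The smallest adjusted p was 0.385, and the targets are not independent, since the same 4 libraries enter each. At positions of WT_GFP_UV replicate 2 lay 5.93% and 6.60% of RRM_OE events, against 10.2% and 10.3% of endo_OE events. At positions of endo_WT, the endogenous protein from cells without overexpression, lay 8.37% and 9.18% of RRM_OE events, against 12.9% and 13.5% of endo_OE events. The ratio to the share 10 to 20 nt away was lower in both RRM_OE libraries for 8 of the 10 targets, and for endo_WT it overlapped, at 3.11 and 2.65 in RRM_OE and 2.63 and 2.77 in endo_OE.

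**Figure D4:**
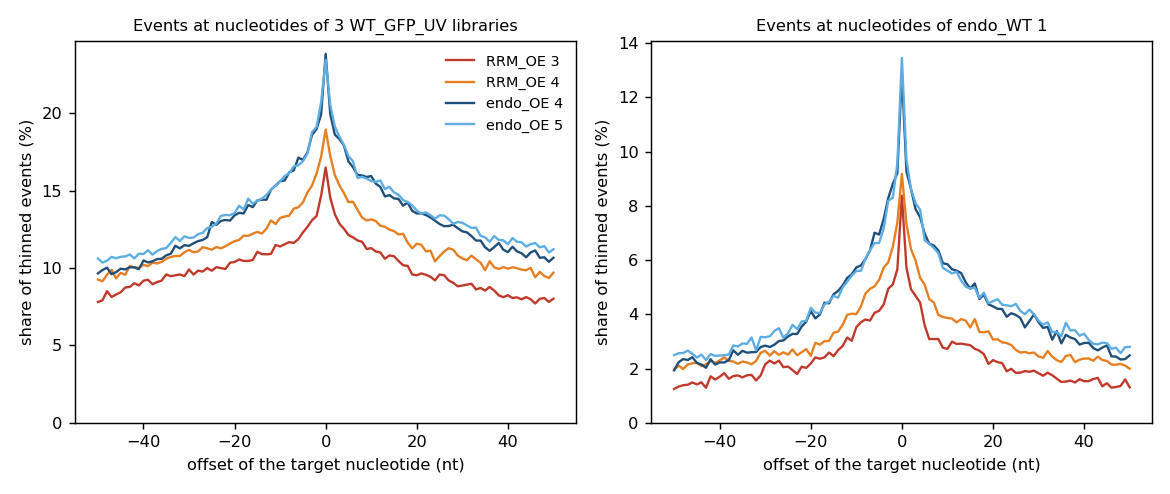
Share of thinned events (y axis, percent) whose position lies at a given offset in nt (x axis) from a target nucleotide, with a line for each RRM_OE and endo_OE library. At offset 0 of the WT_GFP_UV positions the RRM_OE lines reach 16.5% and 19.0% and the endo_OE lines 23.9% and 23.5%.

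The deposited peak lists, whose caller is not given in the sources used here, gave the same order. RRM_OE had 16.7% and 17.8% of events on the 2045481 WT_GFP_UV peak nucleotides, against 22.0% and 22.6% in endo_OE. GFP_OE had 18.6% and 17.9% there, endo_WT 19.0%, the library without UV 15.8% and the library without antibody 16.98%. The endo_OE libraries thus stood above all the others on this list, and RRM_OE replicate 4 was at the level of GFP_OE replicate 4. The other lists were compared for RRM_OE and endo_OE alone. On peaks of mutZn, the zinc-knuckle mutant, the shares were 13.3% and 14.9% in RRM_OE, against 18.7% and 19.8% in endo_OE. On peaks of the variant labelled D27aa they were 6.42% and 7.39% in RRM_OE, against 10.0% and 10.4% in endo_OE. All 7 lists had both RRM_OE libraries lower, each with an exact two-sided permutation p of 0.333.

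The lists made from ribosome fractions and from libraries without UV are shorter and showed the same order. Peaks of the ribosome fractions held 3.61% and 3.72% of RRM_OE events, against 6.32% and 5.94% of endo_OE events, and the ratio of the means, 0.599, was the lowest of the 7. The list from WT SRSF7 without UV held 2.91% and 3.43% of RRM_OE events, against 4.83% and 4.87% of endo_OE events. Lists of background peaks therefore separated the products in the same direction as lists of UV peaks.

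**Figure D5:**
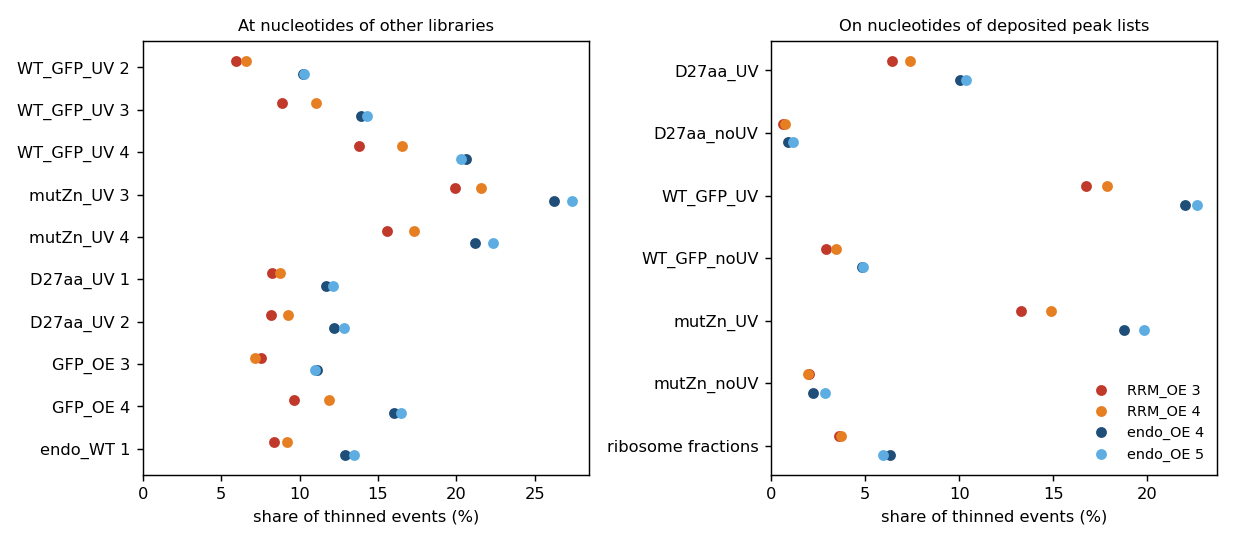
Share of thinned events (x axis, percent) at positions of each target library and on each deposited peak list (y axis), with a point for each RRM_OE and endo_OE library. Both RRM_OE points lie left of both endo_OE points for 10 of 10 UV targets and in 7 of 7 peak lists.

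RRM_OE events were also spread over more windows than endo_OE events, and a lower share of them lay in strong ones. The 10 strongest windows of each library held 5.24% and 6.94% of events in RRM_OE, against 7.74% and 8.33% in endo_OE, and the 100 strongest held 8.58% and 10.8% in RRM_OE, against 13.2% and 13.3% in endo_OE. At equal depth 13719 and 13692 windows held an event in RRM_OE, against 13019 and 13338 in endo_OE. The groups did not overlap in any of these 3 measures. Of RRM_OE positions, 6.37% and 7.99% lay within 10 nt of another, against 11.4% and 9.88% of endo_OE positions. Windows that were strong for WT_GFP_UV, the upper 500, held 10.7% and 13.7% of RRM_OE events, against 15.5% and 15.9% of endo_OE events. GFP_OE had 14237 and 13939 windows with an event and endo_WT 13922, above both RRM_OE libraries. Their 100 strongest windows held 8.95% and 10.6% in GFP_OE and 8.45% in endo_WT. Positions within 10 nt of another made up 6.89% and 6.88% in GFP_OE and 5.91% in endo_WT. In these measures GFP_OE and endo_WT thus lay on the RRM_OE side of both endo_OE libraries.

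The mitochondrial genome held 0.175% and 0.428% of events in RRM_OE, against 0.721% and 0.518% in endo_OE. Repeated events at 1 position overlapped between the groups, with 1.09 and 1.05 events per position in RRM_OE and 1.08 and 1.05 in endo_OE. Of 32 such measures, 19 did not overlap, with RRM_OE higher in 8 and lower in 11, and the smallest adjusted p was 0.561. GFP_OE held 5.19% and 6.71% in its 10 strongest windows and endo_WT 4.40%, while the library without antibody held 11.2%. In this measure endo_OE was the highest of the groups precipitated after UV, and in the mitochondrial share and the share in the upper 500 windows RRM_OE replicate 3 was the lowest of those libraries.

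Few nucleotides recurred in these shallow libraries. After thinning, 90 nucleotides held events in all 4 libraries. A further 318 held events in both endo_OE libraries and neither RRM_OE library, and 112 in both RRM_OE libraries and neither endo_OE library. Pairs across the groups, with neither other library, held more than the RRM_OE pair. RRM_OE replicate 3 shared 127 and 135 with endo_OE replicates 4 and 5, and RRM_OE replicate 4 shared 154 and 174. The endo_OE pair also shared a run, which the RRM_OE pair did not, so these counts do not mark sites of a product.

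Regions that stood out in earlier results of the series mostly overlapped between the 2 products. The region on chromosome 17 minus from 80585001 to 80690000, given above, averaged 20184 ± 3653 CPM in RRM_OE and 19358 ± 659 CPM in endo_OE (SD, n = 2 each), and the libraries overlapped. Of 6 regions, 5 overlapped. Of the 441 windows of the fit, which are shorter, 233 overlapped as well. Whether these regions overlapped more often than the windows was not tested. On chromosome 17 minus from 63035001 to 63235000 RRM_OE held 733 and 722 CPM, against 628 and 563 CPM in endo_OE, from 13 and 31 events in RRM_OE and 21 and 47 events in endo_OE. On chromosome 12 plus from 110780001 to 110990000 it held 845 and 1234 CPM in RRM_OE and 1046 and 1233 CPM in endo_OE.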

How the data were processed

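The deposited crosslink files give, per nucleotide, a signed score whose size is the cDNA count and whose sign is the strand, per the file headers, and the deposited peak lists hold a score per peak nucleotide. The submitters' processing notes name CASAVA 1.4 and build mm9, and the file headers name Ensembl annotation 59. The aligner, the removal of duplicates and the handling of reads with several matches are not given in sources used here, and reads of repeated sequences depend on them. Absolute scores were summed over windows of 5000 nt per strand with Python 3.11.15 (numpy 2.4.6, pandas 2.3.3, scipy 1.17.1). A window was tested if at least 2 libraries reached the CPM that 10 events make at the median depth, with 15 events in all, which left 441. Because the unit is a signed score, the negative binomial quasi-likelihood F test was written in R 4.3.3 with limma 3.58.1 (squeezeVar), fitted on the 7 anti-SRSF7 UV libraries with group as the term, tested on simulated data, and adjusted by Benjamini-Hochberg at 0.05. Scaling used library totals times trimmed-mean factors over the tested windows, chosen after several scalings had been seen. Limma-voom was the second tool. Single values were compared with exact permutation tests, two-sided.

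Named windows are the 12 strongest of each group and, with fewer than 4 calls in a direction, the 4 of smallest p without overlap. The members, regions and lists were chosen with earlier results of these data known. The comparison of bases around crosslinks was not run, because no mm9 genome was used here. CPM is per 1000000 placed events, and intervals cover counting error only.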

Additional observations from a re-analysis of the deposited data

How the results depend on the processing

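No window was called in 19 of the 24 other settings of the window fit, among them limma-voom, library totals, both thinned sets, 1000 and 20000 nt windows, and each fit without 1 of the 4 libraries (0 in each). Every setting that called windows had the sequencing run in it: 29 windows with the run as a block, the same 29 with library totals, 7 within the shared run, 36 of 295 windows of 100 nt (2 higher and 34 lower in RRM_OE) and 30 of 276 windows of 10 nt. The last 2 and the block with library totals were chosen after seeing the data. For the 8 windows named by their p, 98 alternative values kept their direction and their side of the threshold, 10 passed it, and 0 reversed. The difference in the share at WT_GFP_UV positions was −4.51 percentage points with each position counted once, against −5.93 with all events, and −7.15 to −4.70 without 1 library. In the 10 strongest windows it was −1.02 against −1.94, and −2.80 to −1.09 without 1 library. On WT_GFP_UV peaks it was −4.05 against −5.04, and −5.60 to −4.47 without 1 library. Counting each position once removes repeated events by construction. The difference in the region on chromosome 17 minus from 80585001 to 80690000, 826 CPM, ranged from −1758 CPM without RRM_OE replicate 3 to 3409 CPM without RRM_OE replicate 4, so its direction rests on single libraries. No paired analysis was possible because RRM_OE and endo_OE share a single replicate number, 4. Depth limits low windows: in RRM_OE replicate 3, 3 events are 169 CPM.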
